A study of Mus musculus with 12 samples.

Results

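The 8 genes described here, Cebpa, Cebpb, Cebpd, Cebpe, Spi1, Irf8, Gfi1 and Klf4, encode transcription factors that steer blood progenitors into granulocytes, monocytes and dendritic cells. The measurement is chromatin accessibility at their loci in bone marrow of young and old mice. A peak was counted as a member if its centre lay inside 1 of the 8 genes or within 40 kb of its ends (RefSeq annotation of GRCm38), and it was given to the nearest of the 8. This rule rests on position alone and took 86 of the 75281 peaks in the deposited table: 5 at Cebpa, 17 at Cebpb, 6 at Cebpd, 11 at Cebpe, 15 at Spi1, 16 at Irf8, 13 at Gfi1 and 3 at Klf4. Of these, 8 were promoter peaks, 1 per gene, and 78 were distal.

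All 12 libraries came from bone marrow of NZO/HILtJ mice, an inbred strain that becomes obese and prone to diabetes, with no other genotype and no treatment named. There were 4 groups of 3 mice: females and males aged 3 months, and females and males aged 18 months. The assay was ATAC-seq, in which the Tn5 transposase cuts open chromatin, so that reads over a peak count its openness. In bulk marrow, fewer cells of a type and less signal per cell cannot be told apart. The 18-month females were sequenced in run 14 and the 18-month males in run 15, while the 3-month mice were spread over runs 28, 29, 30 and 31. As 0 runs held both ages, age and run cannot be told apart, and neither can sex and run at 18 months.

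PU.1, the product of Spi1, and C/EBPα, the product of Cebpa, act early and together: PU.1 opens myeloid enhancers, and C/EBPα is needed for the step to granulocyte and monocyte progenitors. C/EBPε and Gfi1 then serve neutrophil maturation, whereas Irf8 and Klf4 serve the monocyte and dendritic cell fates. C/EBPβ and C/EBPδ are the members of the family that rise in emergency granulopoiesis and inflammation. Several of these genes are controlled by distal enhancers, among them the +37 kb enhancer of Cebpa and the upstream regulatory element of Spi1.

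Total counts in peaks ranged from 7668099 to 12756647 per library, and 3 counts, taken as the smallest detectable amount, corresponded to 0.239 to 0.376 CPM (counts scaled to a common library total, here with TMM factors). All 86 member peaks passed the filter on low counts, and the smallest count of a member in any library was 7. The labels' protocols describe a sort of T cells, whereas the sample labels name bone marrow. A promoter peak was found for 12 of 12 neutrophil, 11 of 12 erythroid and 7 of 12 T-cell marker genes. The T-cell genes Cd3e, Cd8a, Cd8b1, Cd4 and Bcl11b had none, whereas that of the T-cell kinase gene Lck measured 40.6 to 67.1 CPM. A single young library, from a male and alone in run 30, stood apart at the neutrophil markers, though not only there. Its neutrophil marker peaks summed to 354 CPM, against 180 to 235 CPM in the other 3-month libraries and 274 to 340 CPM at 18 months. Its B-cell marker sum, 119 CPM, was also above the 92.0 to 106 CPM of the other young libraries. Its monocyte marker sum, 67.5 CPM, lay within their 55.7 to 67.6 CPM. Calls and signs of the peaks and gene lists named that turn on this library are given with and without it.

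RefSeq start records were matched for 5 of the 8 genes (GRCm38.p6, 250 bases before to 50 after the start), and 3 of these promoters are shown. Cebpa is shown because its promoter peak was the 1 of 8 past the threshold for age. The Irf8 and Gfi1 promoters, neither of which was past it, are set beside it. Capitals mark matches to the motifs searched on both strands. These were TTGCNNAA for C/EBP, GAGGAA for PU.1 and a repeat of GAAA, spaced by any 2 bases, for IRF. KLF sites were searched as CACCC, and the TATA box as TATAAA.
Cebpa, chr7:35119043-35119342, plus strand: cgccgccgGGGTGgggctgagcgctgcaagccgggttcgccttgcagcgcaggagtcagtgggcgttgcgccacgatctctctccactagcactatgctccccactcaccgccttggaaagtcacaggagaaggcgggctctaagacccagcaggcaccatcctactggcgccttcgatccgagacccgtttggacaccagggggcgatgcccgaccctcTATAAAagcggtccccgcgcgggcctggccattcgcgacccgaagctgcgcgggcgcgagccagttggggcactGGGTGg
Irf8, chr8:120736108-120736407, plus strand: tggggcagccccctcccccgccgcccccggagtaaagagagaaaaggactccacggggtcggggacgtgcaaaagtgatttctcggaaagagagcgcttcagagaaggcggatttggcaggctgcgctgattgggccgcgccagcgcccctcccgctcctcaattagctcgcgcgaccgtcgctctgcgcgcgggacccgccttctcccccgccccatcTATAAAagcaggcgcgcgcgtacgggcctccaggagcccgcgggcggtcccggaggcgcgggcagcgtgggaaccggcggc
Gfi1, chr5:107725756-107726055, minus strand: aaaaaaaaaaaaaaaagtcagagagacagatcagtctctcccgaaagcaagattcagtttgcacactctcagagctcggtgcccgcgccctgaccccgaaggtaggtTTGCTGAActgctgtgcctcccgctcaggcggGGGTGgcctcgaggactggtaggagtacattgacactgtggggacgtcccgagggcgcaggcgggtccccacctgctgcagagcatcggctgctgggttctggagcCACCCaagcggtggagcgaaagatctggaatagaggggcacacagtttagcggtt
The Cebpa window held a TATA match 30 bases before the start and 2 KLF matches (read as GGGTG, the letters of the other strand), and the Irf8 window a TATA match 31 bases before the start. A C/EBP match, TTGCTGAA, lay 143 bases before the start of Gfi1, a gene that encodes a repressor of monocyte genes, along with 2 KLF matches. Among 32851 RefSeq promoter windows of the same length, 13.6% held the TATA letters, 10.8% the C/EBP letters, 57.5% the KLF letters, 28.3% the PU.1 letters and 3.44% the IRF letters. GC content was 67.3% for Cebpa, 70.0% for Irf8 and 58.0% for Gfi1, against a median of 52.7% over all windows. The whole Cebpa and Gfi1 windows lay inside their promoter peaks, and 219 of the 300 bases did so at Irf8.

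Across the 8 loci, accessibility differed with age at 13 of the 86 peaks (15.1%), of which 8 were higher and 5 lower at 18 months (edgeR quasi-likelihood test with sex as covariate, Benjamini-Hochberg adjusted p under 0.05 over all tested peaks). Over the 75164 peaks tested, 21.0% passed the same threshold, 9.43% higher and 11.6% lower. With this scaling the members' share was below the background. At an unadjusted p under 0.05 there were 30 of the 86 member peaks and 25125 of the 75164 tested. The median log2 fold change, 18 over 3 months, was 0.07 over the members and 0.02 over all peaks. Scaling shifted this balance: with total counts as library size the split was 19 higher and 4 lower, with offsets smoothed on abundance (library factors that vary with a peak's mean count) 16 and 3, and with offsets smoothed on peak width 18 and 4. The members' share was then above that of all peaks, at 26.7% against 23.7% with total counts, 22.1% against 19.9% with abundance offsets and 25.6% against 17.9% with width offsets. Higher calls made up 14.9%, 9.53% and 8.44% of all peaks in these fits. Which of the shares was larger thus turned with the scaling, and nothing is read from it about the 8 loci as a group. Total counts moved the median of all peaks to 0.10 and the members' median to 0.14. Member peaks were wide, with a median of 955 bp against 706 bp over all tested peaks.

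**Figure D1:**
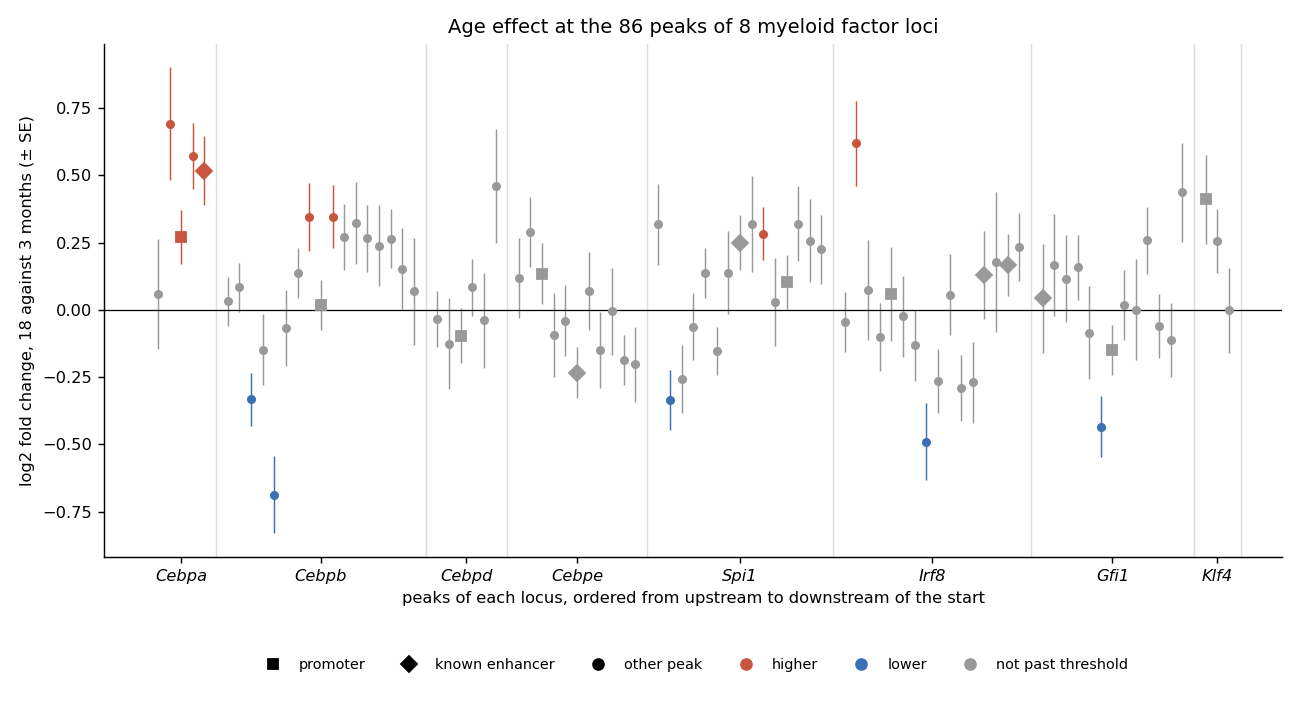
Log2 fold change (18 over 3 months, edgeR) with its standard error for the 86 peaks, 12 libraries, grouped by gene and ordered along the gene's direction; squares are promoter peaks and diamonds known enhancers. All 5 Cebpa peaks lie above 0 and 4 are past the threshold, while the other loci hold 4 peaks past it above 0 and 5 below.

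The calls were unevenly spread over the genes. Cebpa had 4 of 5 peaks higher and none lower, Cebpb 2 higher and 2 lower of 17, Spi1 1 and 1 of 15, Irf8 1 and 1 of 16, and Gfi1 none higher and 1 lower of 13. No peak of Cebpd, Cebpe or Klf4 passed. Distal peaks gave 7 higher and 5 lower of 78, and peaks of the table away from promoters were higher in 10.5% and lower in 8.52%. Promoters gave 1 higher of 8. Over the 11741 promoter peaks of protein-coding genes 3.61% were higher and 27.99% lower, and none of the 8 myeloid promoters was lower. With offsets on abundance or width, 9.05% and 7.20% of those promoters were higher and 16.1% and 15.4% lower. The 24 peaks that lay at an end of or inside another protein-coding gene held 2 of the lower calls (8.33%) and none of the higher. The 62 peaks clear of such genes held 3 lower (4.84%) and 8 higher (12.9%), against 11.6% lower and 9.43% higher of all tested peaks. CPM of the age groups did not overlap at 3 of the 86 peaks, 2 higher and 1 lower, against 7.24% of all tested peaks (2.20% higher, 5.04% lower).

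With TMM scaling, Cebpa was the locus where peaks rose together. C/EBPα drives the entry of progenitors into the granulocyte and monocyte line. The +37 kb enhancer (GRCm38 chr7:35156409-35157565) is the known distal enhancer of Cebpa in progenitors of the marrow. It measured 10.3, 11.9 and 13.5 CPM (lowest, median, highest of 6) at 18 months and 6.64, 8.58 and 9.91 CPM at 3 months. Every old library was above every young one. The log2 fold change was 0.52 ± 0.13 (SE, n = 6 per age, adjusted p = 0.00261), and the peak was past the threshold in all 18 alternatives tried, at 0.46 to 0.59.

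A peak 8.2 kb downstream of the Cebpa start (chr7:35127006-35128049), outside other protein-coding genes, was also free of overlap. Its values were 15.2, 15.9 and 20.5 CPM at 18 months and 8.34, 11.3 and 14.7 CPM at 3 months, a log2 fold change of 0.57 ± 0.12 (adjusted p = 0.000496). Old females averaged 16.4 ± 1.22 and old males 17.1 ± 2.91 CPM (SD, n = 3 each), against 9.67 ± 1.16 in young females and 13.1 ± 1.37 CPM in young males. The weaker peak at -20.5 kb, upstream of the start (chr7:35098550-35099082) gave 3.26, 4.69 and 6.56 CPM against 2.32, 2.80 and 4.78 CPM. It was higher by 0.69 ± 0.21 (adjusted p = 0.0136), with overlap that came from the young male of run 31, the highest of the young at 4.78 CPM. The remaining peak, at -38.3 kb, differed by 0.06 (adjusted p = 0.876).

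The Cebpa promoter peak (chr7:35118130-35120939) carried the smallest change of the 4. It stood at 38.9, 43.4 and 45.8 CPM at 18 months and at 31.1, 34.1 and 48.2 CPM at 3 months. All 6 old libraries were above the young median, but the young male of run 30, at 48.2 CPM, was above all 6, and 13.2 CPM above the next young library. The log2 fold change was 0.27 ± 0.099 (adjusted p = 0.0436), and 0.36 (adjusted p = 0.00113) without the young male of run 30. The call was lost in 12 of 19 alternatives, 10 of them with 1 library left out, with adjusted p from 2.93e-05 to 0.109. It held only without old male 39 or the young male of run 30 among the 12 such fits. Summed over its 5 peaks, the Cebpa locus was higher by 0.38 ± 0.089 (adjusted p = 0.00169), and the summed counts of the other 7 loci were not past the threshold, at -0.10 to 0.24. In every setting tried, between 2 and 4 Cebpa peaks were higher and none was lower. Other loci gained higher calls with other scalings. With offsets on width Cebpb had 8 higher and 1 lower of 17, and Spi1 4 and 1 of 15. With offsets on abundance Cebpb had 6 and 1 and Spi1 4 and 0, and with total counts 6 and 2, and 3 and 0. Of all peaks, 8.44%, 9.53% and 14.9% were higher in these 3 fits. Promoter peaks of neutrophil and monocyte marker genes were higher at 9 of 12 and 7 of 9, with 0 lower, and their part in the Cebpa result was not tested.

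**Figure D2:**
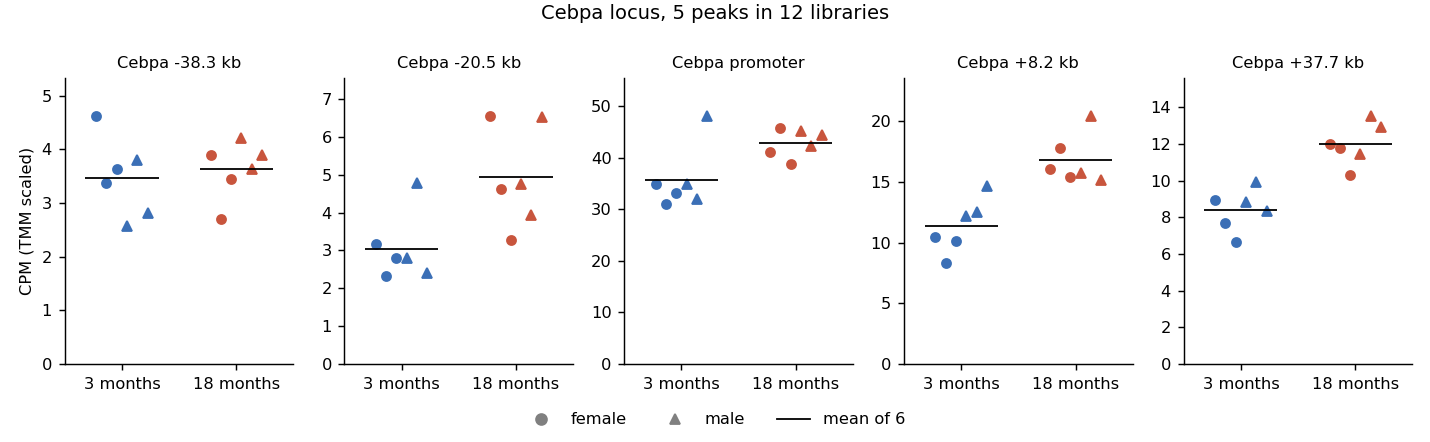
CPM (scaled by TMM factors) of the 5 Cebpa peaks in each of the 12 libraries, with the mean of each age as a line; circles are females and triangles males. The ages do not overlap at +8.2 kb and +37.7 kb, and 1 young male stands at 48.2 CPM in the promoter panel, above all old libraries.

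The other 7 promoters did not pass the threshold. Cebpb (chr2:167684706-167690189) had the most counts, with 108, 124 and 129 CPM at 18 months and 97.3, 120 and 151 CPM at 3 months, a log2 fold change of 0.02 ± 0.093 (adjusted p = 0.921). Young libraries thus spanned the whole range of the old ones. For Cebpd (chr16:15886288-15888618) the values were 48.7, 52.8 and 60.1 CPM against 46.8, 54.2 and 79.7 CPM (-0.10 ± 0.10, adjusted p = 0.543), the highest again the young male of run 30, without which the value was 0.02. The Spi1 promoter (chr2:91096079-91098753) read 54.8, 59.0 and 66.6 CPM against 41.5, 53.6 and 74.6 CPM (0.10 ± 0.10, adjusted p = 0.501). Both the Cebpb and the Spi1 promoter were past the threshold, and higher, with offsets on abundance (0.28 and 0.32) or on width (0.27 and 0.30), so for these wide peaks, 5484 and 2675 bp, the call depended on the scaling.

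The smallest promoter peaks were those of Irf8 and Klf4, the factors of the monocyte branch. Irf8 (chr8:120736189-120736665) gave 4.76, 6.08 and 9.15 CPM at 18 months and 3.45, 6.12 and 8.97 CPM at 3 months (0.06 ± 0.18, adjusted p = 0.856). The old libraries split by sex, without overlap: old females averaged 8.30 ± 1.23 CPM and old males 4.98 ± 0.26 CPM (SD, n = 3 each), though at 18 months sex and run coincide. How many of all tested peaks split in this way was not counted. B-cell marker peaks split in the same libraries, with sums of 110.7 to 113 CPM in old females and 78.1 to 85.0 CPM in old males. Irf8 is also active in B cells. Other marker sums split without overlap too: erythroid 285 to 292 against 258 to 278 CPM, and T-cell 88.3 to 92.7 against 81.7 to 86.7 CPM. Megakaryocyte sums ran the other way, at 58.5 to 64.0 against 65.2 to 70.5 CPM. Neutrophil, monocyte, and stem and progenitor sums overlapped. The part of these cell types in the Irf8 difference was not tested. Klf4 (chr4:55532469-55533046) gave 6.07, 7.20 and 10.8 CPM against 3.95, 6.51 and 7.20 CPM, the largest promoter difference at 0.41 ± 0.16, with an adjusted p of 0.0681. It passed the threshold with total counts and without the young male of run 30 (both 0.49) or old female 42. Gfi1 (chr5:107723353-107726850) was below the young median in all 6 old libraries, at 41.8, 44.4 and 46.7 CPM against 42.4, 49.9 and 53.7 CPM (-0.15 ± 0.091, adjusted p = 0.256), and its sign turned with offsets on abundance or width (0.04 and 0.07).

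**Figure D3:**
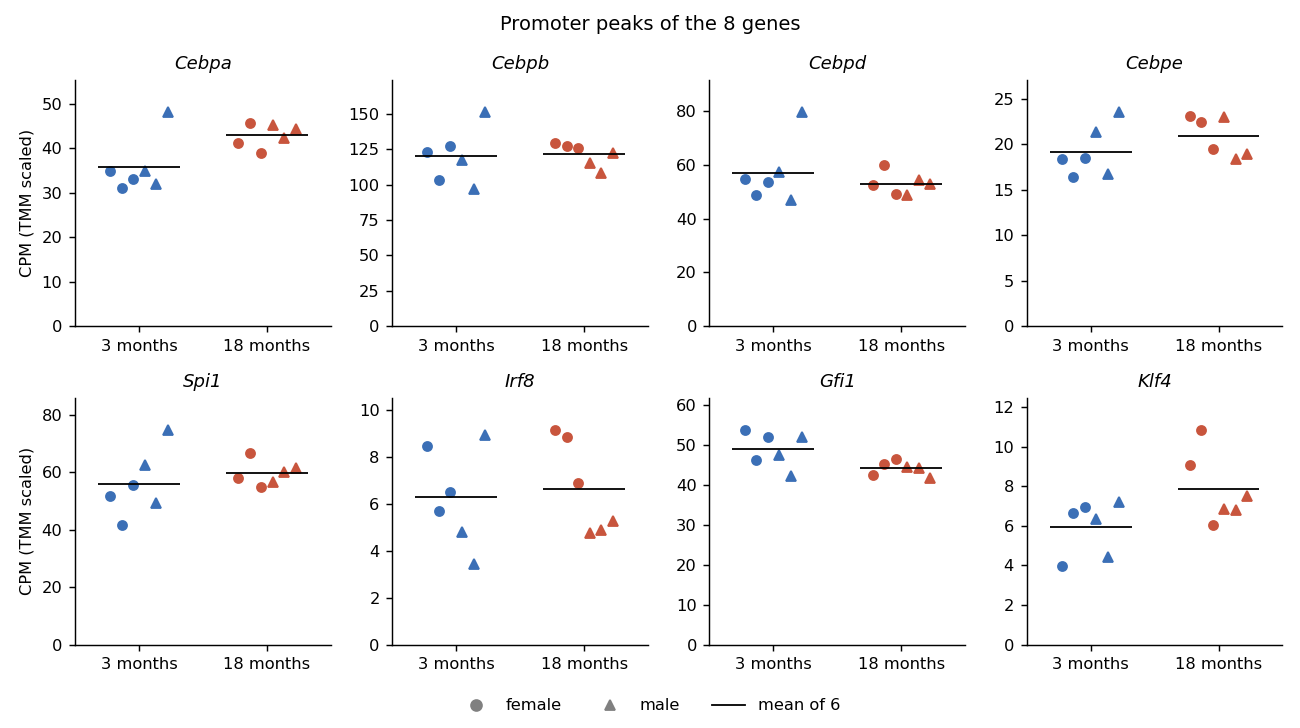
CPM of the promoter peak of each of the 8 genes in the 12 libraries, on a separate axis per gene that starts at 0, with the mean of each age as a line; circles are females and triangles males. The ages overlap at all 8 promoters, and the highest young value at Cebpa, Cebpb, Cebpd, Cebpe, Spi1, Irf8 and Klf4 belongs to 1 male library.

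Cebpb, which is used when granulocyte demand is high, changed in both directions away from its promoter. The strongest was a loss at -16.1 kb (chr2:167672372-167673208): 5.65, 9.01 and 10.6 CPM at 18 months against 11.6, 13.6 and 19.98 CPM at 3 months. No old library reached the lowest young one. The log2 fold change was -0.69 ± 0.14 (adjusted p = 0.000357), past the threshold in all 18 alternatives. It was -0.35 in females (adjusted p = 0.227) and -1.05 in males (adjusted p = 8.97e-05), a difference that did not pass its own test (interaction adjusted p = 0.365).

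Close to the gene, 2 Cebpb peaks were higher. The peak 2.2 kb downstream of the start (chr2:167690622-167691687) had 17.1, 18.1 and 21.8 CPM against 12.6, 14.1 and 18.3 CPM (0.35 ± 0.12, adjusted p = 0.0281). That at -5.7 kb (chr2:167682706-167683734) had 10.7, 13.2 and 14.5 CPM against 8.66, 9.69 and 12.1 CPM (0.35 ± 0.13, adjusted p = 0.0451). Each was above the young median in 6 of 6 old libraries, but the first lost its call in 5 and the second in 10 of 18 alternatives, among them leaving out the young male of run 30 (0.29, adjusted p = 0.0822). The other lower peak, at -27.0 kb and an end of Tmem189, had a log2 fold change of -0.33 ± 0.099 (adjusted p = 0.0119). With offsets on abundance it was -0.12 and with offsets on width -0.14, no longer past the threshold. The 7 peaks from 4.8 to 34.9 kb downstream were not called with TMM scaling, at 0.07 to 0.32. The locus held 8 higher calls with offsets on width and 6 with offsets on abundance or total counts. Peaks not called here thus passed with other scalings.

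At Cebpe, which encodes the factor of terminal neutrophil maturation, no peak passed the threshold, yet its promoter and its +6 kb enhancer (chr14:54705520-54708223) moved apart. The promoter (chr14:54712022-54713171) read 18.3, 21.0 and 23.2 CPM at 18 months and 16.4, 18.4 and 23.6 CPM at 3 months (0.13 ± 0.11, adjusted p = 0.421). The enhancer read 38.1, 39.9 and 48.4 CPM against 42.6, 49.2 and 56.2 CPM (-0.23 ± 0.095, adjusted p = 0.0727). All 6 old libraries lay below the young median at the enhancer. Within a library, where a single scaling factor per library cancels but one that varies with peak width does not, there were 164, 205 and 217 enhancer counts per 100 promoter counts at 18 months and 238, 259 and 276 at 3 months, with no overlap. The means were 200.2 ± 19.7 and 258 ± 14.8 (SD, n = 6 each; exact two-sided permutation p = 0.00216, the smallest that 924 arrangements allow, adjusted to 0.0302 over 14 such measures at the 8 loci).

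This ratio was examined after other values at the locus had been seen. It did not rest on 1 library: leaving out each in turn gave differences of -61.3 to -50.3. Females ranged from 164 to 215 against 258 to 276, and males from 196 to 217 against 238 to 271, each without overlap (exact permutation p = 0.1, the smallest that 3 against 3 allows). The enhancer peak, at 2704 bp, is wider than the promoter peak, at 1150 bp, and with offsets on width the log2 fold changes were -0.04 and 0.16, closer together than the -0.23 and 0.13 given above. The promoter's share of all Cebpe counts was 9.21 ± 0.72% at 18 months and 7.86 ± 0.57% at 3 months (exact permutation p = 0.00649, adjusted to 0.0454). Of the remaining 12 measures none had an adjusted value under 0.05. For the +37 kb enhancer of Cebpa the ratio was 27.97 ± 2.56 against 24.0 ± 4.76 per 100 promoter counts (exact permutation p = 0.110).

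**Figure D4:**
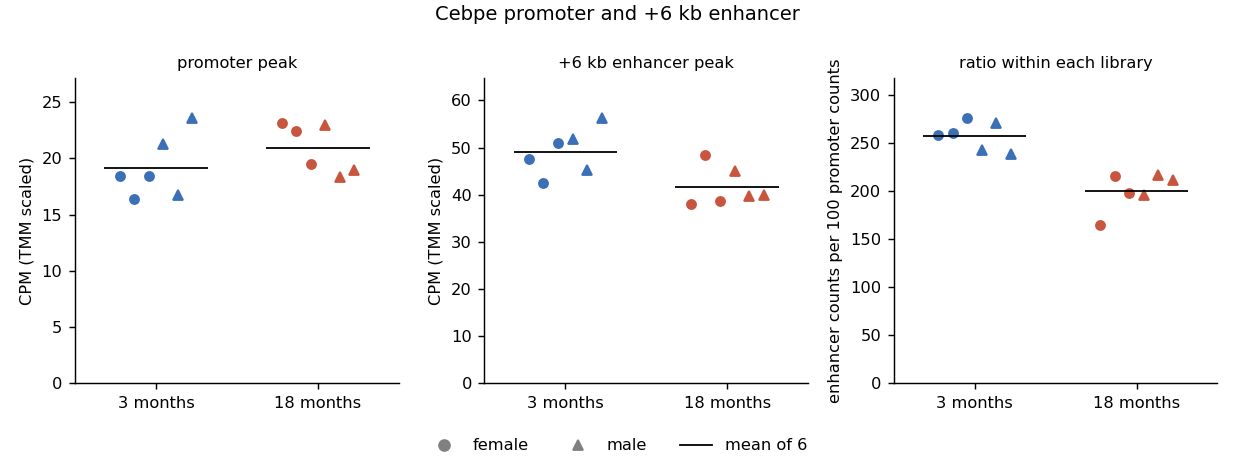
CPM of the Cebpe promoter peak and of its +6 kb enhancer peak, and enhancer counts per 100 promoter counts, in each of the 12 libraries, with the mean of each age as a line; circles are females and triangles males. The 6 old libraries span 164 to 217 in the ratio and the 6 young ones 238 to 276.

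The other peaks of Cebpd and Cebpe gave few differences. At Cebpd, which like Cebpb responds to inflammatory signals, 6 peaks ranged from -0.13 to 0.46, the largest being 17.9 kb downstream inside Spidr (adjusted p = 0.116). Among the 11 Cebpe peaks, the one at -2.1 kb gave 0.63 in females (adjusted p = 0.00609) and -0.06 in males (adjusted p = 0.868), and the one at +25.4 kb gave -0.01 in females (adjusted p = 0.966) and -0.36 in males (adjusted p = 0.0414). The interaction of the former had the smallest adjusted p of the members, 0.301.

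At Spi1, whose product PU.1 is required for all myeloid lineages, the -14 kb upstream regulatory element (chr2:91082180-91085801) had more counts than the promoter. It measured 63.6, 67.5 and 77.2 CPM at 18 months and 43.4, 54.7 and 83.1 CPM at 3 months. The young libraries spread widely and included the highest, the young male of run 30, while the 6 old ones all lay above the young median. The log2 fold change was 0.25 ± 0.10 (adjusted p = 0.0764). Without the young male of run 30 it was 0.36 (adjusted p = 0.000701), and with offsets on abundance or width it was 0.47, all 3 past the threshold.

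Element counts per 100 promoter counts were 115 ± 6.20 at 18 months and 104 ± 7.98 at 3 months (SD, n = 6 each; exact permutation p = 0.0195, adjusted to 0.0910). Between the element and the promoter, a peak at -7.6 kb (chr2:91087646-91089989) was higher, with 28.5, 33.4 and 40.1 CPM against 23.7, 28.2 and 29.4 CPM (0.28 ± 0.099, adjusted p = 0.0338). A peak at -42.2 kb (chr2:91053735-91054666), at an end of the proteasome gene Psmc3, was lower, with 16.5, 24.8 and 29.4 CPM against 25.0, 30.7 and 34.3 CPM (-0.34 ± 0.11, adjusted p = 0.0255). Each lost its call in 6 of 18 alternatives, all with 1 library left out for the first and 4 of them so for the second. The longest RefSeq model of Spi1 starts in the upstream element, and the promoter was therefore placed 14 kb into it.

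Irf8, the factor of monocytes and dendritic cells, had calls at distal peaks that are not among its known enhancers. A peak at -34.2 kb (chr8:120701828-120702402) was higher, with 7.05, 8.63 and 11.3 CPM at 18 months and 4.33, 5.18 and 8.24 CPM at 3 months (0.62 ± 0.16, adjusted p = 0.00332). A peak 9.7 kb downstream of the start, inside the gene (chr8:120745709-120746505), was lower, with 4.69, 9.09 and 9.88 CPM against 9.82, 10.99 and 13.4 CPM (-0.49 ± 0.14, adjusted p = 0.0100). Both held in all 18 alternatives. The old sexes did not overlap at either peak, as at the promoter and at the peaks at -11.0, +24.1 and +41.2 kb. The share of all tested peaks that split in this way was not counted, and sex and run coincide at 18 months. Old females had 8.97 to 11.3 CPM at -34.2 kb and 9.65 to 9.88 CPM at +9.7 kb, and old males 7.05 to 8.28 and 4.69 to 8.53 CPM. The -34.2 kb peak gave 0.84 in females (adjusted p = 0.00508) and 0.38 in males (adjusted p = 0.288), the +9.7 kb peak -0.22 (adjusted p = 0.475) and -0.79 (adjusted p = 0.00457), and neither interaction passed (adjusted p = 0.629 and 0.476). The B-cell, erythroid, T-cell and megakaryocyte marker sums given with the promoter split in the same libraries, and their part was not tested. Of the enhancers known downstream of Irf8, that at +32 kb had no peak within 1.5 kb. The +41 kb enhancer (chr8:120777203-120777829) had 4.52, 6.60 and 7.09 CPM at 18 months and 3.46, 6.02 and 6.89 CPM at 3 months (0.13 ± 0.16, adjusted p = 0.620). The +56 kb enhancer (chr8:120792630-120793914) had a median of 14.4 and a highest value of 15.4 CPM at 18 months against 13.1 and 13.9 CPM at 3 months (0.17 ± 0.12, adjusted p = 0.325). The ages overlapped at both.

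Gfi1, a repressor that favours neutrophils over monocytes, had 1 call among 13 peaks. A peak at -13.2 kb (chr5:107738161-107739886) was lower, with 12.7, 14.4 and 16.0 CPM at 18 months and 15.4, 19.6 and 22.4 CPM at 3 months. All 6 old libraries were below the young median, and only the ends of the ranges overlapped. The log2 fold change was -0.43 ± 0.11 (adjusted p = 0.00433), past the threshold in all 18 alternatives. Its -35 kb enhancer (chr5:107759130-107759464), inside Evi5, had medians of 3.604 and 3.48 CPM (0.04 ± 0.20, adjusted p = 0.912; -0.03 without the young male of run 30), a level at which a change of this size was not detectable. Klf4, which promotes the monocyte fate, had 2 peaks beside its promoter, at 0.25 (adjusted p = 0.122) and -0.0014 (adjusted p = 0.997).

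The sexes gave different counts but no tested difference with all libraries in the fit. In females 6 member peaks were higher and none lower (Cebpa +8.2 and +37.7 kb, Cebpb +2.2 kb, Cebpe -2.1 kb, the Spi1 element and Irf8 -34.2 kb), where 11.9% of all tested peaks were called, 5.70% higher and 6.20% lower. In males none was higher and 5 were lower (Cebpb -16.1 kb, Cebpe +25.4 kb, Spi1 -42.2 kb, Irf8 +9.7 kb and Gfi1 -13.2 kb), where 11.4% were called, 3.21% higher and 8.18% lower. By the edgeR interaction test 0 member peaks differed between the sexes (0.00532% of all tested peaks did), and 6 had an unadjusted p under 0.05 (7515 of all 75164). Without the young male of run 31, 1383 of 75162 peaks passed this test below 0 and 238 above, a member peak among them. DESeq2 gave an adjusted p to 42 of the 86 only, and called 0 of these. With sequencing run as a block, 0 were called and 5 had an unadjusted p under 0.05. The old sexes shared no run, so this fit compared only the young sexes, within runs 29 and 31. It could therefore not test the interaction, and nothing is read from it about a difference between the sexes in the age effect. The counts per sex moved between 2 and 9 in females and between 3 and 14 in males when libraries were left out, the 14 (16.3%, against 16.2% of all peaks) without the young male of run 31. The share of all peaks called moved in these fits as well, between 6.24% and 15.7% in females and between 5.995% and 16.2% in males. Scaling moved the member counts too. In females 10 peaks were called with offsets on abundance (11.6%, against 13.04% of all peaks) and 12 with offsets on width (13.95% against 10.9%), all of them higher. In males 9 were called with total counts (10.5% against 11.6%), 11 with offsets on abundance (12.79% against 7.89%) and 8 with offsets on width (9.30% against 7.81%), of which 6, 8 and 5 were higher, so that the absence of higher calls in males held only for some scalings.

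The 8 genes can be set beside the genes they work with, read at their promoter peaks. Granule genes, targets of C/EBP factors in neutrophils, were higher at 7 of 10 with a peak and lower at none (median log2 fold change 0.45), among them Ngp at 0.67 ± 0.10 (adjusted p = 1.56e-06) and the lactoferrin gene Ltf at 0.61 ± 0.13 (adjusted p = 0.000281). Monocyte and dendritic cell genes were higher at 6 of 9 and lower at none (median 0.47), such as Ly86 at 0.63 (adjusted p = 0.00682) and the chemokine receptor gene Cx3cr1 at 0.56 (adjusted p = 0.0168). Of 8 growth factor receptor genes 3 were higher (5 with total counts, or without the young male of run 30) and none lower (median 0.30): Csf2ra at 0.47, and Csf2rb and Csf2rb2, both at 0.39, whose sequences are near-identical copies that reads may not tell apart. The G-CSF and M-CSF receptor genes, Csf3r and Csf1r, named after their values were seen, measured -0.10 and 0.33 (adjusted p = 0.605 and 0.0927). Without the young male of run 30 they were 0.04 and 0.43 (adjusted p = 0.822 and 0.0142), so that the sign turned for Csf3r and Csf1r was past the threshold. The granule and the monocyte and dendritic genes had the same counts without that library (medians 0.52 and 0.56). Scaling moved the monocyte and dendritic genes to 4 higher with offsets on width, 5 with offsets on abundance or DESeq2 and 8 with total counts. Granule genes had 8 higher with either kind of offset or total counts and 6 with DESeq2. Over all promoters 3.61% were higher, 7.19% with total counts, 9.05% with offsets on abundance, 7.20% with offsets on width and 3.18% with DESeq2.

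Other fate factors split. Of 26 with a peak, 4 were higher and 9 lower (where 3.61% of all promoters were higher and 27.99% lower), with a median of -0.06 that turned to 0.02 with total counts and 0.05 with offsets on abundance. With offsets on abundance 7 were higher and 7 lower, with offsets on width 6 and 6, and without the young male of run 30 there were 6 and 9. The higher ones were Nr4a1 (0.56, adjusted p = 0.000144) and Irf4 (0.37, adjusted p = 0.0217), both tied to the monocyte and dendritic line, along with Id1 and Klf6. Lower were the erythroid factors Gata1 (-0.96, adjusted p = 5.02e-05) and Klf1 (-0.77, adjusted p = 6.46e-09). The other 7 lower ones were Gfi1b, the erythroid and megakaryocyte relative of Gfi1, and Nfe2, Zeb2, Ikzf1, Bach1, Etv6 and Myb.

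Cell type markers moved with age beside these results. Erythroid marker promoters were lower at 11 of 11 with a peak (median -0.96) and summed to 258 to 292 CPM at 18 months against 465.6 to 593 CPM at 3 months. Neutrophil markers, 6 of them also in the granule list, were higher at 9 of 12, with the sums given above. Monocyte markers, 6 of them also in the monocyte and dendritic list, were higher at 7 of 9, with 78.8 to 97.6 CPM against 55.7 to 67.6 CPM. With offsets on width 5 of these markers were higher, with offsets on abundance or DESeq2 6, and with total counts 9. B-cell markers gave 0 calls of 10, stem and progenitor markers 0 of 5, T-cell markers 1 higher and 1 lower of 6 distinct peaks (Cd3d and Cd3g share 1; 2 higher with total counts, 0 calls with offsets on width), and megakaryocyte markers 1 lower of 4. The 86 member peaks together took 0.163 to 0.168% of the counts at 18 months, 0.147 to 0.154% in the young libraries other than the male of run 30, and 0.170% in that male. The part of cell composition in the member results was not tested.

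**Figure D5:**
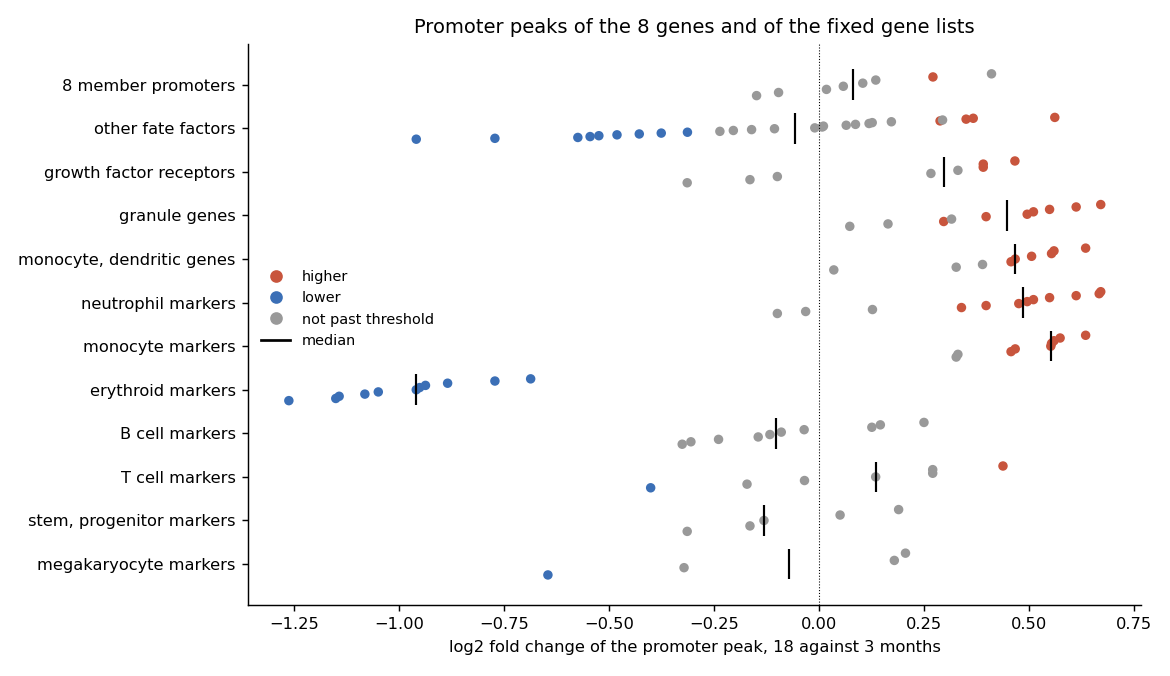
Log2 fold change (18 over 3 months, edgeR) of the promoter peaks of the 8 genes and of each gene list, 1 point per gene with a peak and the list median as a line; coloured points are past the threshold. Erythroid markers all lie below 0 (median -0.96), and granule genes all lie above 0 (median 0.45).

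Between libraries of a group, the member promoters rose and fell together to differing degrees. Over the 12 libraries, with each group's mean removed, Pearson's r between promoter peaks ran from 0.02 for Klf4 and Gfi1 to 0.93 for Irf8 and Cebpa, with a median of 0.74 over the 28 pairs. Without the young male of run 30, the highest young library at 7 of the 8 promoters, the range was -0.25 to 0.89, the median 0.59 and the value for Irf8 and Cebpa 0.77. Among 13008 other genes, the promoters most like Cebpa by this measure were Pygl (0.99), the liver-type glycogen phosphorylase gene, Cab39 (0.98) and Trpm2 (0.98), at 0.94, 0.94 and 0.96 without that male. For Spi1 they were Supt5, Pygb and Acsl3, and for Irf8 Dgat1, Thumpd3 and Trib1, the last a gene whose product acts on C/EBP proteins. These are descriptions over libraries that share depth and composition, picked as the highest of many, and carry no test.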

How the data were processed

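ATAC-seq counts of bone marrow from 12 mice were used, with age, sex, mouse number and run taken from the sample labels. The table of raw counts over consensus peaks was deposited by the authors; its values are whole numbers, not normalized, with a smallest value of 1. The submitters' processing notes name Trimmomatic, BWA, MACS2, DiffBind and edgeR, and the build mm10, with no roles; duplicate removal, shift to the Tn5 cut site and the consensus rule are not given in the sources used here. Low peaks are affected by the minimum of 1, but no member count was under 7. The 75164 of 75281 peaks that exceeded 1 CPM in 2 or more libraries were fitted with edgeR 4.0.16 in R 4.3.3 (TMM factors, quasi-likelihood test, age with sex as covariate; a mean per age and sex for the sexes and their interaction). P-values were Benjamini-Hochberg adjusted over all tested peaks, with a threshold of 0.05. They measure the spread between mice as labelled; age and run cannot be told apart.

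The member genes, their peaks and the gene lists were chosen with earlier results of these data known. Promoter peaks cover the RefSeq start or lie within 1 kb of it; without a strand, the highest peak within 1 kb of either gene end was taken. For Spi1 this rule gave the upstream element, so its start was placed 14 kb into the gene model, a departure from the rule. Named peaks were all promoter peaks, known enhancers (within 1.5 kb of their published distance), and the distal peak with the smallest p of each gene; the 6 other called peaks were named after their values were seen. From each list, up to 2 genes that rose and 2 that fell most among those past the threshold were named; others were named after their values were seen. Likeness was Pearson's r of log2 CPM residuals. Ratios within a locus, added after the data were seen, were tested by exact permutation. The fit was tested on simulated data. Total counts, DESeq2 1.42.0, abundance and width offsets, no filter, age alone, a 20 kb window, summed loci and leaving out each library were tried. Floors cover counting error only, whereas SDs and standard errors include the spread between mice.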

Additional observations from a re-analysis of the deposited data

Results flagged for a closer look

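At the Cebpa promoter peak, 1 of the 6 libraries aged 3 months, a male, lay far from the rest, at 48.2 CPM, 13.2 CPM above the next of them. It was the only value so marked among 54 groups of libraries examined with Dixon's test, and chance alone marks about 1 in 20. The library was the only one of run 30.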

How the results depend on the processing

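The 13 called peaks kept their sign in all 235 values computed, and 192 of these stayed past the threshold; 6 of the 14 named peaks that were not called reached it under some setting. The 13 called peaks (15.1% of members, 21.0% of all peaks) became 23 with total counts (26.7% against 23.7%), 22 with width offsets (25.6% against 17.9%) and 8 of 54 in a 20 kb window (14.8%). The 8 higher ones became 19, 16 and 18 with total counts, abundance and width offsets and 5 in the 20 kb window, and the 5 lower ones became 3 with abundance offsets and in that window. Calls in females (6) became 10 with abundance offsets, 12 with width offsets and 10 from female libraries only (11.6% against 16.3% of all peaks). Calls in males (5) became 9 with total counts, 11 with abundance offsets, 8 with width offsets and 3 from male libraries only (3.49% against 8.003%). The cause was not tested. Single libraries ended calls at the Cebpa peak at -20.5 kb (old female 35 or old male 40) and at 5 other called peaks, and made calls at the Cebpe +6 kb enhancer (without old female 36 or either young library of run 31), the Klf4 promoter and the Spi1 element. Leaving out each library gave 8 to 17 called peaks, 4 to 12 higher, 4 to 7 lower, 2 to 9 in females, 3 to 14 in males, and 0 to 1 for the interaction. The fewest calls, 8 (9.30% against 16.8% of all peaks), came without the young male of run 29 and the most, 17 (19.8% against 24.9%), without the young male of run 30. The higher calls were 4 without old female 35, old male 40, the young females of runs 28 and 31 or the young male of run 29. Of all peaks 6.67% to 7.51% were higher in these fits, and 12.0% in the fit with 12 higher, without the young male of run 30. Calls in females were 2 without old female 36 or the young females of runs 28 or 31. The shares of all peaks called in these fits were 6.31%, 6.24% and 6.71%, against 11.9% with all libraries. Calls in males were 3 without old female 35, old male 39 or the young male of run 29. There the shares of all peaks were 10.3%, 6.50% and 5.995%, against 11.4% with all libraries. The 1 interaction came without the young male of run 31.

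Signs turned at promoters near 0: Cebpd with abundance (0.11) and width offsets (0.081), Gfi1 likewise (0.041 and 0.070), Irf8 with width offsets (-0.036) and summed (-0.040), Cebpe summed (-0.098), and the Gfi1 -35 kb enhancer with abundance (-0.037) and width offsets (-0.091). Leaving out libraries gave -0.036 to 0.10 for Cebpb, -0.16 to 0.018 for Cebpd, -0.037 to 0.27 for Irf8 and -0.026 to 0.17 for the Gfi1 enhancer. By the rule as first written, the Spi1 promoter would be the upstream element (0.25, adjusted p = 0.0764). No paired analysis was possible because the labels give no replicate number that 2 groups share and 0 runs held both ages. A fit with run as a block was added after the data were seen and gave 0 calls. As the old sexes shared no run, it compared only the young sexes, within runs 29 and 31, and could not test the interaction. Depth limits the peaks of a few CPM, whose standard errors reached 0.26.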
